A study of Homo sapiens with 15 samples.

Results

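The AKR1 genes examined here encode 5 aldo-keto reductases: AKR1C1, AKR1C2 and AKR1C3, which act on steroids, and AKR1B1 and AKR1A1, which act mainly on aldehydes. The members were taken by gene symbol and make up 5 of the 37787 genes in the deposited table. Their transcripts were taken from the quantification of each library. AKR1C3, and the group with it, was chosen by its low level in FOXL2WT against Vectors, so that the values of all 5 genes in that comparison are a description without a test.

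The samples were HGrC1 cells, an immortalized human granulosa cell line, at passage 14. Cells were lipofected for 4 hours and then kept for 24 hours in serum-free medium, and each of 5 conditions had 3 libraries (A, B and C). Vectors received plasmids that the labels name only as vectors. FOXL2WT received wild-type FOXL2 with SMAD3, and FOXL2C134W received the FOXL2 mutant found in adult granulosa cell tumors with SMAD3. FOXL2WT + FOXO1 and FOXL2C134W + FOXO1 received the same plasmids and, in addition, FOXO1-3A, a FOXO1 form with alanine substitutions that stays in the nucleus. FOXL2 and FOXO1-3A carried an N-terminal Flag tag, and HGrC1 cells keep normal FOXL2 alleles of their own. Because SMAD3 was co-transfected in every condition but Vectors, the effects of SMAD3 and of FOXL2 against Vectors cannot be told apart. Nothing in the labels states that the 3 libraries of a condition came from separate cultures, so the p-values measure the spread between these libraries, which may be technical.

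Library totals ran from 14962245 to 25339094 estimated reads. The plasmid genes followed the labels. FOXL2 was 8.73 ± 0.704 CPM (counts scaled to the library size, SD, n = 3) in Vectors, 561 ± 5.89 CPM in FOXL2WT and 147 ± 27 CPM in FOXL2C134W, and SMAD3 was 249 ± 12 CPM, 2768 ± 154 CPM and 843 ± 37.4 CPM in the same 3 conditions. The FOXL2WT and FOXL2C134W libraries therefore differed in the amount of both plasmid transcripts as well as in the FOXL2 form, and the part of this in the differences below was not tested. For protein, the paper reported balanced levels of both FOXL2 forms and of FOXO1, by immunoblot of samples cultured in parallel. FOXO1 was between 11.6 and 13.8 CPM without its plasmid, 117 ± 14.5 CPM in FOXL2WT + FOXO1 and 43.2 ± 4.06 CPM in FOXL2C134W + FOXO1. Among 13 granulosa markers, GATA4 (129 to 154 CPM), WT1 (38.8 to 47.7 CPM) and FST (41.1 to 47.0 CPM) were present, whereas FSHR was at 0 in every library and CYP19A1 and INHA did not exceed 4 reads. Markers of other cells were not all low: KRT7 reached 1976 CPM and CD68 117 CPM, while PTPRC did not exceed 5 reads and CYP17A1 1 read. The summed CPM in Vectors against the range over the 12 other libraries was 1542 to 1749 against 1829 to 2341 for 4 epithelial markers, 104 to 118 against 90.2 to 98.4 for 4 leukocyte markers and 19.2 to 22.5 against 13.1 to 17.95 for 4 endothelial markers. Against Vectors, KRT7 was higher and CD68 lower in all 4 other conditions (edgeR adjusted p at most 0.016 for both), but the epithelial list did not move as a whole. KRT7 carried its sum, EPCAM stayed between 4.78 and 7.72 CPM, CDH1 did not exceed 12 reads, and KRT19 was 380 CPM in Vectors and lower in the means of the 4 other conditions (338 to 347 CPM), with a call in FOXL2C134W (log2 fold change -0.17, SE 0.05, edgeR adjusted p = 0.036). The part of these shifts in the AKR1 differences was not tested.

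Aldo-keto reductases are soluble enzymes that use NADPH to reduce ketones and aldehydes to alcohols. In the ovary, AKR1C1 is known for turning progesterone into an inactive hydroxylated form, AKR1C2 for reducing the potent androgen dihydrotestosterone, and AKR1C3 for making testosterone and estradiol from their ketone precursors and for prostaglandin synthesis. AKR1B1, aldose reductase, reduces glucose to sorbitol and clears lipid aldehydes, and AKR1A1, aldehyde reductase, reduces a wide range of aldehydes.

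The AKR1C genes are neighbours and near-identical copies. In GRCh38 they lie at chr10:4963253-4983283 (AKR1C1, plus strand), chr10:4987775-5018031 (AKR1C2, minus strand) and chr10:5035354-5107686 (AKR1C3, plus strand). AKR1B1 lies at chr7:134442356-134459284 (minus strand) and AKR1A1 at chr1:45550543-45570049 (plus strand). Each AKR1C coding sequence has 972 bases. AKR1C1 and AKR1C2 differed at 19 of them (98.1% identity) and AKR1C1 and AKR1C3 at 83 (91.5% identity). Reads were 75 bases long, and 302 of the 898 coding windows of that length (33.6%) were the same letter for letter in AKR1C1 and AKR1C2, with 189 bases as the longest shared run. The sequences below are reference sequence (GRCh38, GENCODE 44, exon 8, coding bases 849 to 923) and show such a window. A read from it fits AKR1C1 and AKR1C2 equally well. Capitals mark the 13 bases at which AKR1C3 differs from AKR1C1.
AKR1C1 chr10:4975853-4975927 (+): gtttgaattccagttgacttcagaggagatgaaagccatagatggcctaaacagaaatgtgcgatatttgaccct
AKR1C2 chr10:4991837-4991911 (-): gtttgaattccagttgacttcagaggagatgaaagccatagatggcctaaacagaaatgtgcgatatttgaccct
AKR1C3 chr10:5105597-5105671 (+): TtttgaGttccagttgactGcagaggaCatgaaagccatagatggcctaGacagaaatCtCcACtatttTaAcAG

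The window at coding bases 88 to 162 in exon 2 is shown because it separates AKR1C1 from AKR1C2 best. Capitals mark the bases that differ from AKR1C1, 10 in AKR1C2 and 9 in AKR1C3, for example T16C in AKR1C2 and T3G in AKR1C3 (AKR1C1 base, position from 1 at the 5′ end of the window, base of the other gene).
AKR1C1 chr10:4965917-4965991 (+): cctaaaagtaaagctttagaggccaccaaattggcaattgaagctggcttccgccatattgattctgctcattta
AKR1C2 chr10:5001604-5001678 (-): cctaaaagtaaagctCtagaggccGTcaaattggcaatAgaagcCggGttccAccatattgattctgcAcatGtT
AKR1C3 chr10:5096413-5096487 (+): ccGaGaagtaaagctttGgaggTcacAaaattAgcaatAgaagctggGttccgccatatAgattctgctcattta

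Over all annotated transcripts of a gene, 18.5% of the 75-base words of AKR1C1 and 27.1% of those of AKR1C2 also occurred in another gene, in each case another AKR1C gene. The share was 3.30% for AKR1C3, 0.584% for AKR1B1 and 0 for AKR1A1. By transcript, the share was highest in AKR1C2-202, at 47.3% of its windows, followed by AKR1C1-205 at 37.5%. AKR1C3-201, the main AKR1C3 transcript, shared 12.3%. The levels of AKR1C1 and AKR1C2 thus depended on how salmon divided common reads, and AKR1C1, AKR1C2 and AKR1C3 were also summed to a single feature, which does not depend on that division.

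**Figure D1:**
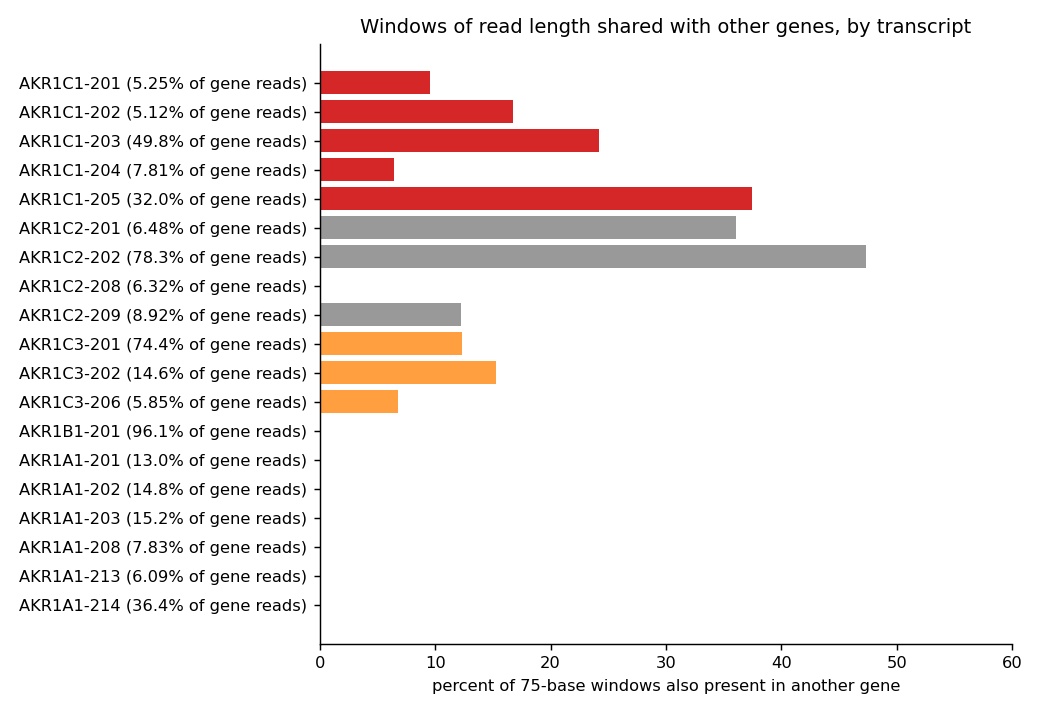
Horizontal bars give the percent of 75-base windows of a transcript that also occur in another gene (x axis), for each transcript with at least 5% of the reads of its gene (y axis, with that percent in parentheses). Red is AKR1C1, grey AKR1C2, orange AKR1C3; the AKR1B1 and AKR1A1 transcripts are at 0, and AKR1C2-202 has the longest bar at 47.3%.

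The members fell into a pair of abundant genes and 3 that were close to the limit of detection. In TPM, a scale that corrects for transcript length and allows genes to be compared, AKR1B1 was at 123 ± 7.45 (SD over 15 libraries) and AKR1A1 at 93.5 ± 7.43, above 90.8% and 87.5% of the 13868 tested genes. AKR1C1 was at 0.933 ± 0.507 TPM, AKR1C3 at 0.767 ± 0.376 TPM and AKR1C2 at 0.255 ± 0.177 TPM. AKR1B1 was above AKR1A1 in 15 of 15 libraries. Next in order, AKR1A1 was 100-fold above AKR1C1 by the means. AKR1C1 was above AKR1C3 in only 8 of 15 libraries, and these neighbours did not differ beyond their spread. AKR1C3 was above AKR1C2 in 13 of 15 libraries.

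AKR1C1, AKR1C2 and AKR1C3 together gave 409 estimated reads in all 15 libraries, against 36314 for AKR1B1 and 18593 for AKR1A1. A gene entered the test when at least 3 libraries reached 0.458 CPM, which is 10 reads at the median library size. AKR1B1 and AKR1A1 reached it in all 15 libraries, AKR1C1 in 10 and AKR1C3 in 7, 3 of which were the Vectors libraries. AKR1C2 reached it in 1 library and was not tested, so that 4 of the 5 members were.

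AKR1C3, the 17-ketosteroid and prostaglandin reductase, had 29, 14 and 22 reads in Vectors and 4, 3 and 3 in FOXL2WT. FOXL2C134W had 8, 7 and 14 reads, FOXL2WT + FOXO1 had 5, 16 and 9, and FOXL2C134W + FOXO1 had 10, 12 and 7. Its lowest libraries were the 3 of FOXL2WT, and its highest 2 of the 3 of Vectors. In CPM the order was Vectors (0.945 ± 0.292), FOXL2WT + FOXO1 (0.504 ± 0.212), FOXL2C134W + FOXO1 (0.425 ± 0.110), FOXL2C134W (0.418 ± 0.197) and FOXL2WT (0.181 ± 0.0459). Each neighbouring pair in that order overlapped except the last, since every FOXL2C134W library lay above every FOXL2WT library. This is not independent of the choice of AKR1C3 by its FOXL2WT level, and 30.4% of genes had no overlap in this comparison. In TPM these libraries overlapped, with 0.685 in FOXL2WT library B and 0.394 in FOXL2C134W library A.

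AKR1C1, the 20-alpha-hydroxysteroid dehydrogenase, had 25, 20 and 14 reads in Vectors, 5, 11 and 19 in FOXL2WT and 2, 16 and 6 in FOXL2C134W. With FOXO1 it had 14, 13 and 13 reads on FOXL2WT and 4, 8 and 13 on FOXL2C134W. The mean level was 0.880 ± 0.282 CPM in Vectors and lowest in FOXL2C134W (0.341 ± 0.30 CPM), and all neighbours in the order of its 5 levels overlapped. FOXL2C134W library A held 2 reads and library B 16, a wide spread within a condition.

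AKR1C2, the 3-alpha-hydroxysteroid dehydrogenase, had 4, 11 and 10 reads in Vectors and between 0 and 9 in the other 12 libraries. It was at 0 reads in FOXL2C134W library B and in FOXL2WT + FOXO1 library A; a count of 0 allows up to 3 reads. Pooled over a condition and taken over the library totals, Vectors gave 0.368 CPM (95% exact Poisson interval 0.238 to 0.544) and FOXL2WT 0.122 CPM (0.0492 to 0.252). These intervals cover counting error only, since reads without molecular identifiers are not independent molecules. All neighbours in the order of its levels overlapped.

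Summed, AKR1C1, AKR1C2 and AKR1C3 had 58, 45 and 46 reads in Vectors, 13, 15 and 24 in FOXL2WT and 14, 23 and 29 in FOXL2C134W. FOXL2WT + FOXO1 had 19, 32 and 26 reads and FOXL2C134W + FOXO1 had 19, 22 and 24. Every Vectors library (lowest 1.84 CPM) lay above all 12 other libraries (highest 1.48 CPM), which none of the 5 genes did singly. Over the tested genes, 4.04% showed this. AKR1C3 was chosen by its low level in FOXL2WT against Vectors and gave 65 of the 149 Vectors reads of the sum. The separation is not independent of that choice. The means were 2.20 ± 0.346 CPM in Vectors, 1.34 ± 0.128 CPM in FOXL2WT + FOXO1, 0.951 ± 0.391 CPM in FOXL2C134W, 0.949 ± 0.0782 CPM in FOXL2C134W + FOXO1 and 0.908 ± 0.187 CPM in FOXL2WT.

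**Figure D2:**
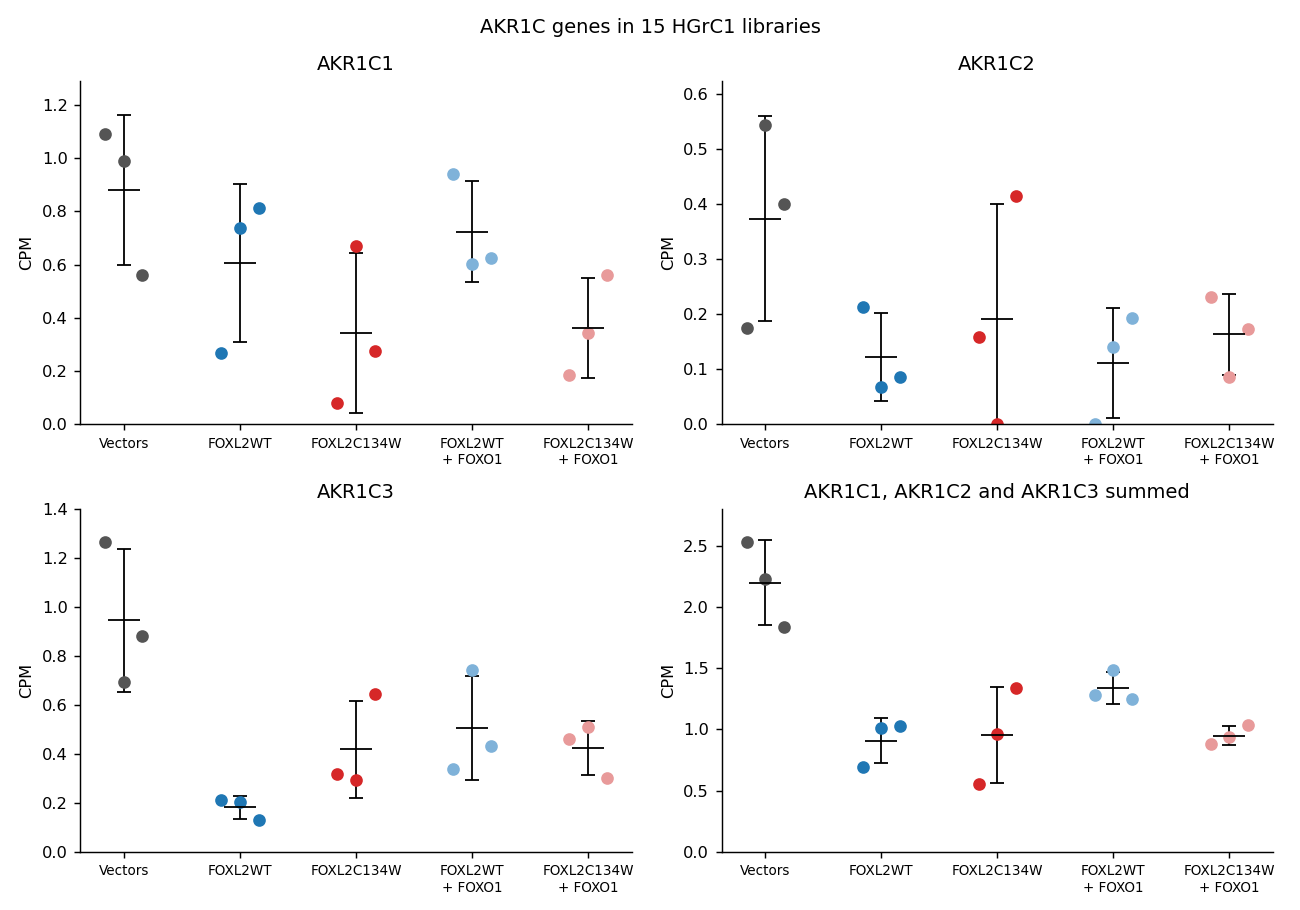
Points are the 3 libraries of each condition (x axis) and the y axis is the level in CPM; horizontal marks are means and bars ± SD. In the panel of the sum, the Vectors libraries lie at 1.84 CPM or more and all other libraries at 1.48 CPM or less, whereas in each single-gene panel at least 1 library of another condition lies above the lowest Vectors library (the AKR1C2 error bar of FOXL2C134W is cut at 0).

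The division of these reads among the copies also differed between libraries. AKR1C3 made up 43.6% of the AKR1C reads in Vectors (65 of 149 reads, 95% Wilson interval 35.9 to 51.7%) and 19.2% in FOXL2WT (10 of 52, 10.8 to 31.9%). AKR1C1 made up 39.6% in Vectors (32.1 to 47.6%) and 67.3% in FOXL2WT (53.8 to 78.5%). In FOXL2C134W, AKR1C3 made up 43.9% (32.6 to 55.9%), close to its share in Vectors, although the sum was lower. Between single libraries the AKR1C1 share ranged from 14.3% to 69.6% within FOXL2C134W alone. It ranged from 38.5% to 79.2% in FOXL2WT, which overlapped its 30.4% to 44.4% in Vectors. AKR1C3 was chosen by its low level in FOXL2WT against Vectors, so the shares of these 2 conditions are not independent of that choice. The intervals pool the libraries and cover counting error only, and the shares were not tested.

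**Figure D3:**
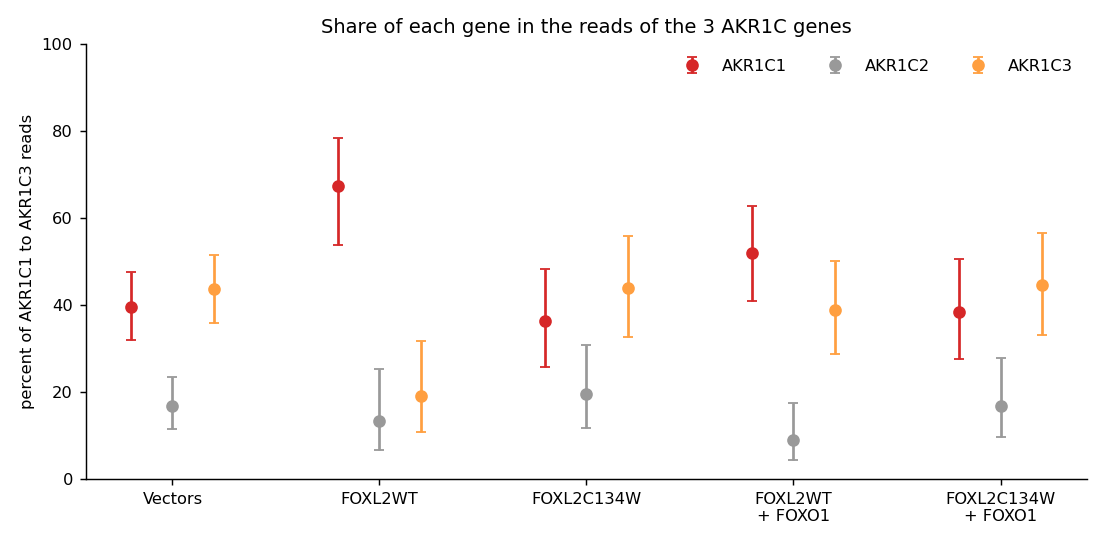
Points give the percent of the summed AKR1C reads assigned to AKR1C1 (red), AKR1C2 (grey) and AKR1C3 (orange) over the 3 libraries of each condition (x axis), and bars are 95% Wilson intervals for counting error. In FOXL2WT, AKR1C1 is at 67.3% and AKR1C3 at 19.2%; in Vectors they are at 39.6% and 43.6%.

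AKR1B1, aldose reductase, had 123, 124 and 118 CPM in Vectors, 117, 114 and 119 CPM in FOXL2WT and 115, 101 and 95.6 CPM in FOXL2C134W. With FOXO1 it had 121, 113 and 112 CPM on FOXL2WT and 113, 109 and 103 CPM on FOXL2C134W. All 6 libraries with FOXL2C134W lay below the lowest Vectors library. The share of all tested genes that did so was not counted. Pairwise, 31.8% of genes had no overlap between FOXL2C134W and Vectors, and 28.4% had none between FOXL2C134W + FOXO1 and Vectors. Neighbours in the order of its 5 means, which ran from 122 ± 3.54 CPM in Vectors to 104 ± 10.1 CPM in FOXL2C134W, overlapped.

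AKR1A1, aldehyde reductase, had 57.5, 62.7 and 58.3 CPM in Vectors, 60.6, 62.9 and 62.6 CPM in FOXL2WT and 55.2, 55.9 and 53.8 CPM in FOXL2C134W. With FOXO1 it had 64.2, 59.1 and 57.1 CPM on FOXL2WT and 56.1, 56.0 and 49.9 CPM on FOXL2C134W. The 6 libraries with FOXL2C134W were the 6 lowest of all 15 libraries, and the 9 others overlapped among themselves. The share of all tested genes with such a split was not counted. Pairwise, the libraries of FOXL2C134W did not overlap those of FOXL2WT for 30.4% of genes and those of Vectors for 31.8%. This split was seen in CPM: in TPM, AKR1A1 was 90.6 ± 6.10 in FOXL2C134W and 97.8 ± 7.49 in FOXL2WT, with overlapping libraries.

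**Figure D4:**
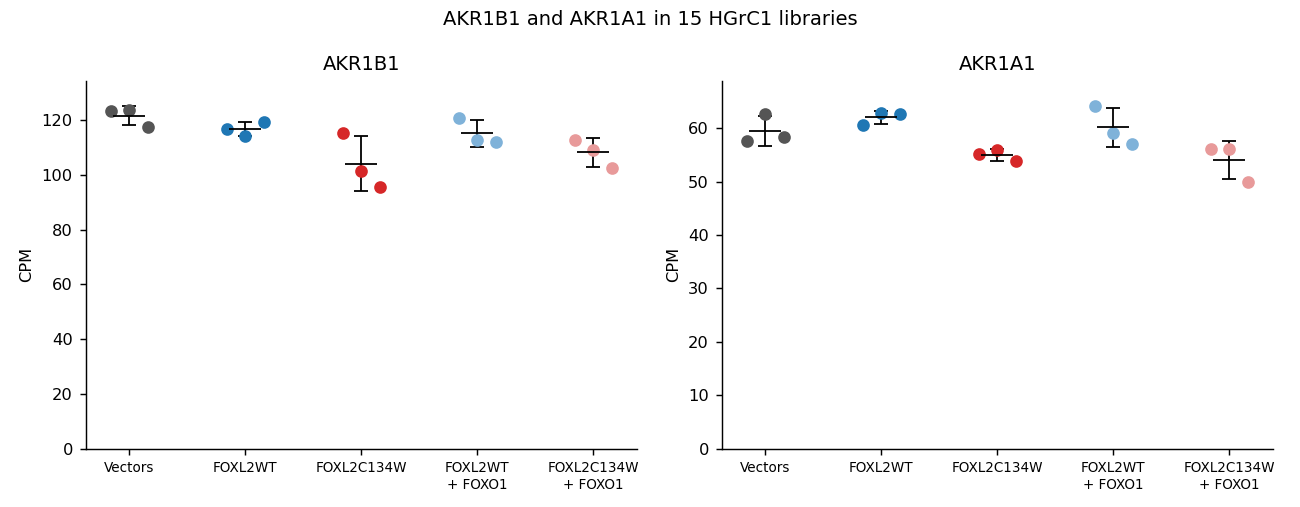
Points are the 3 libraries of each condition (x axis) and the y axis is the level in CPM, from 0; horizontal marks are means and bars ± SD. AKR1B1 lies between 95.6 and 124 CPM and AKR1A1 between 49.9 and 64.2 CPM, and the FOXL2C134W conditions have the lowest means of both genes.

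FOXL2WT against Vectors, which asks what wild-type FOXL2 with SMAD3 did to the cells, is the comparison by which AKR1C3 was chosen. AKR1C3 was 5.25-fold lower in FOXL2WT (log2 fold change -2.39, SE 0.48), AKR1C1 had a log2 fold change of -0.51 (SE 0.51) and the sum of the copies one of -1.27 (SE 0.28). AKR1B1 had a log2 fold change of -0.06 (SE 0.06) and AKR1A1 of 0.06 (SE 0.06). In bulk RNA, fewer cells with a transcript and less of it per cell cannot be told apart. Libraries of both conditions overlapped for AKR1C1, AKR1B1 and AKR1A1 and not for AKR1C3. In this comparison 6.07% of all tested genes passed an adjusted p of 0.05 and the libraries of 31.1% did not overlap, and nothing is read from these shares here. The comparisons below that use the FOXL2WT or the Vectors libraries are not independent of the choice of AKR1C3.

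FOXL2C134W against Vectors asks the same of the mutant. AKR1B1 fell 1.17-fold (log2 fold change -0.22, SE 0.06, adjusted p = 0.013 by edgeR's quasi-likelihood test with Benjamini-Hochberg adjustment over 13868 genes). AKR1C3 fell 2.29-fold (-1.19, SE 0.39, edgeR adjusted p = 0.047) and the sum of the copies 2.33-fold (-1.22, SE 0.27, edgeR adjusted p = 0.0045). The log2 fold change was -1.35 (SE 0.54, edgeR adjusted p = 0.10) for AKR1C1 and -0.11 (SE 0.06, edgeR adjusted p = 0.19) for AKR1A1. Thus 2 of the 4 tested members were called, where 14.7% of all genes were. AKR1C3, 1 of the 2, was chosen by values that include these Vectors libraries, so this count is not independent of that choice. Nor is the result of the sum, which holds the AKR1C3 reads. The libraries of AKR1C3, AKR1B1 and AKR1A1 did not overlap between the conditions, as was so for 31.8% of genes. Calls of the single genes were fragile: AKR1C3 passed in 1 and AKR1B1 in 2 of the 6 fits that left out a library, while the sum passed in 6 of 6. AKR1C3 lost its call without any of Vectors A, B and C or FOXL2C134W A and B (adjusted p from 0.052 to 0.20), and AKR1B1 without Vectors A or B or FOXL2C134W B or C (from 0.053 to 0.075). With DESeq2 and transcript length offsets, the log2 fold change of AKR1B1 was -0.19 (DESeq2 adjusted p = 0.071).

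In FOXL2C134W + FOXO1 against Vectors, the sum of the AKR1C copies fell 2.30-fold (log2 fold change -1.20, SE 0.27, edgeR adjusted p = 0.0073), and it passed in 6 of 6 fits that left out a library. This sum, which holds the AKR1C3 reads, is not independent of the choice of AKR1C3. With transcript length offsets its value was -0.83 (DESeq2 adjusted p = 0.27). The edgeR test called 0 of the 4 members singly, against 9.33% of all genes. All 4 had an unadjusted p under 0.05, as did 3281 of the 13868 tested genes. DESeq2 called 0 of the 2 that it gave an adjusted p, and 1387 of 13868 genes. The log2 fold changes were -1.25 (SE 0.53) for AKR1C1, -1.15 (SE 0.39) for AKR1C3, -0.17 (SE 0.06) for AKR1B1 and -0.14 (SE 0.06) for AKR1A1, with edgeR adjusted p from 0.073 to 0.16. The libraries of these 4 genes did not overlap between the conditions, as was so for 28.4% of all genes. For AKR1C1 this was a near tie, with 0.559 CPM (13 reads) in FOXL2C134W + FOXO1 library C and 0.5597 CPM (14 reads) in Vectors library C.

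FOXL2WT + FOXO1 against Vectors gave smaller differences. The sum of the copies had a log2 fold change of -0.71 (SE 0.26, edgeR adjusted p = 0.16) with libraries that did not overlap. AKR1C3 had a log2 fold change of -0.87 (SE 0.39, edgeR adjusted p = 0.26), AKR1C1 of -0.30 (SE 0.50), AKR1B1 of -0.08 (SE 0.06) and AKR1A1 of 0.01 (SE 0.06). By edgeR 0 of 4 members were called, where edgeR called 3.78% of all genes. Of the 4, 1 had an unadjusted p under 0.05, as did 2400 of 13868 genes. DESeq2 called 0 of 2 members, and 660 of 13868 genes. The libraries of none of the 4 genes were apart, against 22.7% of genes.

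FOXL2C134W against FOXL2WT addresses what the tumor mutation changed. AKR1A1 had a log2 fold change of -0.17 (SE 0.06, edgeR adjusted p = 0.051) and AKR1B1 of -0.17 (SE 0.06, edgeR adjusted p = 0.072). AKR1C3 was on the other side of 0 with 1.20 (SE 0.54, edgeR adjusted p = 0.17), AKR1C1 had -0.83 (SE 0.58, edgeR adjusted p = 0.40), and the sum of the copies had 0.05 (SE 0.31, edgeR adjusted p = 0.95), with a 95% interval from its SE of -0.55 to 0.65. The edgeR test called 0 of 4 members. An unadjusted p under 0.05 was seen for 3 of them and for 3535 of 13868 genes. DESeq2 called 1 of the 2 that it gave an adjusted p, AKR1A1 (DESeq2 adjusted p = 0.049). Of all 13868 genes, edgeR called 11.2% and DESeq2 1706. In CPM the libraries of AKR1C3 and AKR1A1 did not overlap, as was so for 30.4% of genes. In TPM those of both genes overlapped. Over the alternatives the adjusted p ranged from 0.039 to 0.54 for AKR1A1 and from 0.0038 to 0.36 for AKR1B1, so that the threshold fell inside both ranges. The lowest value of AKR1B1 came from leaving out FOXL2C134W library A, its highest library in that condition.

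With FOXO1 present, FOXL2C134W + FOXO1 against FOXL2WT + FOXO1 gave log2 fold changes of -0.15 (SE 0.06, edgeR adjusted p = 0.26) for AKR1A1, -0.09 (SE 0.06) for AKR1B1, -0.95 (SE 0.56) for AKR1C1 and -0.29 (SE 0.44) for AKR1C3. The sum of the copies had -0.50 (SE 0.29, edgeR adjusted p = 0.47). By edgeR 0 of 4 members were called, while edgeR called 0.144% of all genes. Of the 4, 1 had an unadjusted p under 0.05, as did 1878 of 13868 genes. DESeq2 called 0 of 2 members, and 95 of 13868 genes. The libraries of AKR1C1 and AKR1A1 did not overlap, against 15.2% of genes.

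The comparisons with and without FOXO1 also differed in the other plasmid transcripts. Where FOXO1 was added to FOXL2WT, SMAD3 was 969 ± 10.8 CPM in place of 2768 ± 154 CPM and FOXL2 384 ± 14.97 CPM in place of 561 ± 5.89 CPM, and where it was added to FOXL2C134W, SMAD3 was 392 ± 16.9 CPM in place of 843 ± 37.4 CPM and FOXL2 152 ± 20.1 CPM in place of 147 ± 27 CPM. The part of these levels in the values below and in the interaction was not tested. FOXL2WT + FOXO1 against FOXL2WT gave AKR1C3 a log2 fold change of 1.53 (SE 0.53, edgeR adjusted p = 0.40), with every FOXO1 library (lowest 0.336 CPM) above every FOXL2WT library (highest 0.213 CPM). That difference did not pass the test, it rests on the FOXL2WT libraries by which AKR1C3 was chosen, and 14.5% of genes had libraries that did not overlap. In TPM the AKR1C3 libraries overlapped, with 0.541 in FOXL2WT + FOXO1 library C and 0.685 in FOXL2WT library B. AKR1C1 had 0.21 (SE 0.53), the sum of the copies 0.56 (SE 0.30, edgeR adjusted p = 0.60), AKR1B1 -0.02 (SE 0.06) and AKR1A1 -0.05 (SE 0.06). FOXL2C134W + FOXO1 against FOXL2C134W gave AKR1C3 0.04 (SE 0.44), AKR1C1 0.10 (SE 0.61), the sum 0.02 (SE 0.29), AKR1B1 0.06 (SE 0.06) and AKR1A1 -0.03 (SE 0.06), and no member had libraries that did not overlap, against 14.0% of genes. The edgeR test called 0 of 4 members in both comparisons, as did DESeq2 of 2. An unadjusted p under 0.05 was seen for 1 member on FOXL2WT and 0 on FOXL2C134W. Of 13868 genes, 1266 and 1557 had such a p. Over all genes edgeR called 0.0505% and 0.714%, and DESeq2 called 62 and 224 genes.

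The difference between these 2 comparisons was tested as an interaction. It was -1.48 (SE 0.69, edgeR adjusted p = 0.39) for AKR1C3, -0.11 (SE 0.82) for AKR1C1, 0.08 (SE 0.08) for AKR1B1 and 0.02 (SE 0.08) for AKR1A1. None of the 4 was called by edgeR and none of 2 by DESeq2. Of all 13868 genes, edgeR called 1.38% and DESeq2 366. An unadjusted p under 0.05 was seen for 1 member and for 1736 of 13868 genes. A difference between the FOXL2 forms was therefore not shown for AKR1C3, at 3 to 16 reads per library. The FOXO1 transcript also differed, at 117 ± 14.5 CPM on FOXL2WT and 43.2 ± 4.06 CPM on FOXL2C134W, and its part was not tested. For AKR1C3 the interaction also rests on the FOXL2WT libraries by which that gene was chosen.

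**Figure D5:**
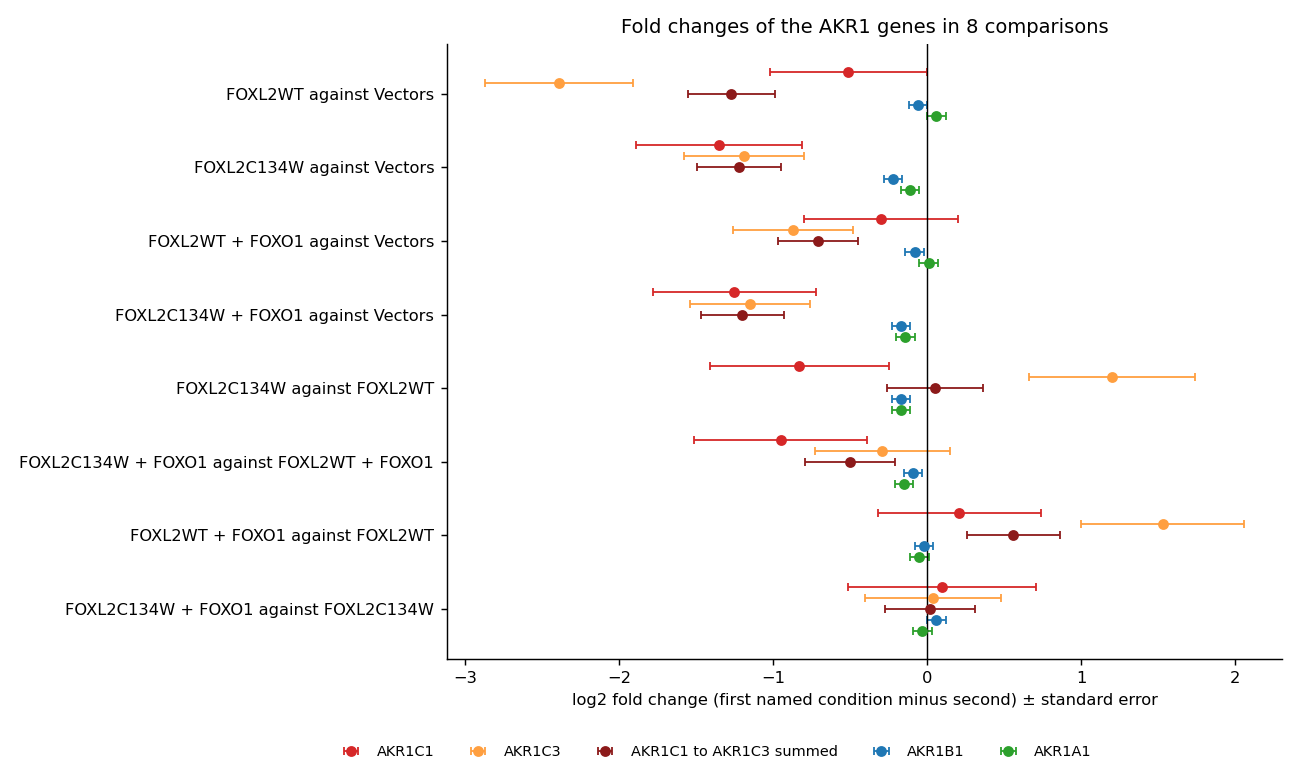
Points are log2 fold changes of the first named condition over the second (x axis) in 8 comparisons (y axis) and bars are ± standard error, from edgeR fits over all 15 libraries. AKR1B1 and AKR1A1 stay within 0.22 of 0, whereas AKR1C3 runs from -2.39 to 1.53 with standard errors of 0.39 to 0.54.

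At the level of transcripts, AKR1B1 was almost a single form: AKR1B1-201 held 96.1% of its reads and was at 124 ± 5.14 TPM in Vectors, 118 ± 1.78 TPM in FOXL2WT and 106 ± 9.18 TPM in FOXL2C134W. AKR1A1 was spread over 6 transcripts with at least 5% of its reads each. AKR1A1-214 held 36.4%, AKR1A1-203 15.2%, AKR1A1-202 14.8%, AKR1A1-201 13.0%, AKR1A1-208 7.83% and AKR1A1-213 6.09%. AKR1A1-201 was unstable between libraries of 1 condition, from 0 to 26.4% of AKR1A1 TPM over all libraries, and these shares were not tested.

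The AKR1C transcripts rested on few reads. AKR1C1-203 held 49.8% and AKR1C1-205, which is annotated as a processed transcript without coding sequence, 32.0% of the AKR1C1 reads, while AKR1C1-204, AKR1C1-201 and AKR1C1-202 held 7.81%, 5.25% and 5.12%. AKR1C2-202 held 78.3% of the AKR1C2 reads, and AKR1C2-209, AKR1C2-201 and AKR1C2-208 held 8.92%, 6.48% and 6.32%. AKR1C3-201 held 74.4% of the AKR1C3 reads and was above 0 in 11 libraries. AKR1C3-202 held 14.6%, all of it in 2 libraries: Vectors B, where it took 100% of the gene, and FOXL2C134W + FOXO1 B. AKR1C3-206 held 5.85%, in 4 libraries. The 3 FOXL2WT libraries assigned 3.97, 0 and 3.25 reads to AKR1C3-201, against 28.5, 0 and 22.0 in Vectors.

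The sum of the AKR1C copies, though none of them singly, was apart from all other conditions in Vectors. That separation is not independent of the choice of AKR1C3. The promoters of the copies are shown (RefSeq, GRCh38.p14, from 250 bases before to 50 bases after the start). Capitals mark bases that differ from AKR1C1 or have no counterpart in its window in the alignment. Of the listed AKR1C3 starts, the one most like AKR1C1 is shown (79.5% of aligned positions identical, against 78.0% for the upstream start).
AKR1C1 chr10:4963165-4963464 (+): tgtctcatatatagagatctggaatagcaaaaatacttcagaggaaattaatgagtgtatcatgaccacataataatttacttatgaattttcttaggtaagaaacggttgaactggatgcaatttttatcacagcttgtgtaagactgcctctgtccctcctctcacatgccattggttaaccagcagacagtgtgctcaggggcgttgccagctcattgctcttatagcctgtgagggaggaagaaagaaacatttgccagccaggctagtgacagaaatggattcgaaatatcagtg
AKR1C2 chr10:5003808-5004107 (-): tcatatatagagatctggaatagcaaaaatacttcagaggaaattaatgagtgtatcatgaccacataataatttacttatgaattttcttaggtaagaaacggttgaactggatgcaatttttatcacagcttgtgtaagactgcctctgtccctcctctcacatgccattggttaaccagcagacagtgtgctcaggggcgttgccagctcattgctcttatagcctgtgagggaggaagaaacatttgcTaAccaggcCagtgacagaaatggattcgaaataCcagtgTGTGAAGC
AKR1C3 chr10:5094164-5094463 (+): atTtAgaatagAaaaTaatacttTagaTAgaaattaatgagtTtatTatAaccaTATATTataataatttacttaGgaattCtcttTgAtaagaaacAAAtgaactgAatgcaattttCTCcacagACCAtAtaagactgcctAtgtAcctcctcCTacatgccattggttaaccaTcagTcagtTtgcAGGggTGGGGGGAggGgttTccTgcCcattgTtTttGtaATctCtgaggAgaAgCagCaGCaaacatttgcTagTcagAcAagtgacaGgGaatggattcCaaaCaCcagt

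The AKR1C1 and AKR1C2 promoters were identical at 98.6% of aligned positions and those of AKR1C1 and AKR1C3 at 79.5%. Both strands of the 7 promoters listed for the 5 members were searched for GTAAACA, the core forkhead site, TGACNNNGC, the core of the antioxidant response element, GTCTAGAC, the SMAD palindrome, and TATAAA. The first 3 occurred in none of the 7 windows. They occur in 3.42%, 13.4% and 0.202% of the 35116 listed human promoters. TATAAA, found in 11.5% of promoters, had 1 match, on the minus strand 26 bases before the upstream start of AKR1C3 (chr10:5048531-5048830). A window without these letters says nothing about binding of the factors.

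Across the 15 libraries AKR1B1 and AKR1A1 varied together (Pearson r = 0.722 of log2-CPM), whereas AKR1C1 and AKR1C3 did so little (r = 0.153), and the AKR1C counts carry much counting noise. The genes whose pattern was most like that of AKR1A1 were ATP6V0B (r = 0.963), DIABLO (0.938) and DTYMK (0.922), and for AKR1B1 they included TMEM109 (0.933) and UBB (0.922). For AKR1C3 they were PODXL (0.877), ANPEP (0.843) and CA12 (0.833), and for AKR1C1 VAMP8 (0.869), KDR (0.855) and PDGFD (0.843). These are among the highest of 13867 correlations for each gene over libraries that share their conditions and depth, and are a description only.

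The wider enzyme family was read from lists of related genes. Of 14 other aldo-keto reductases 6 were tested, and AKR1C4, AKR1C6P and AKR1C8P were at 0 in every library. In FOXL2C134W against FOXL2WT 0 of these 6 were called by edgeR, where 11.2% of all genes were. The same holds for the additions of FOXO1 to FOXL2WT and to FOXL2C134W, where 0.0505% and 0.714% of all genes were called. Of 13 tested steroid oxidoreductases of other families, 0 were called in FOXL2C134W against FOXL2WT (median log2 fold change -0.10, all genes -0.01). Of 19 tested aldehyde and carbonyl enzymes, 3 fell and 0 rose in that comparison (median -0.05), where 11.2% of all genes were called in either direction, a share near that of the list. The 3 were GLO1, the glyoxalase that removes methylglyoxal (-0.15, SE 0.04, edgeR adjusted p = 0.013), ADH5, which oxidizes the glutathione adduct of formaldehyde (-0.15, SE 0.04, edgeR adjusted p = 0.015), and ALDH2, the mitochondrial aldehyde dehydrogenase (-0.20, SE 0.06, edgeR adjusted p = 0.031). AKR1B1 and AKR1A1, at -0.17 each, had values of the same size without a call.

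Several AKR1 genes are known targets of NRF2, the factor of the antioxidant response, and 25 other genes of that response were tested. In FOXL2C134W against FOXL2WT 5 fell and 1 rose (median -0.06), where 11.2% of all genes were called. The 4 with the smallest p were MAFG, a partner of NRF2 (-0.23, SE 0.05, edgeR adjusted p = 0.0053), HMOX1, heme oxygenase (-0.34, SE 0.07, edgeR adjusted p = 0.0062), FTL, the ferritin light chain (-0.23, SE 0.05, edgeR adjusted p = 0.0070), and ABCC1, an efflux pump (0.24, SE 0.05, edgeR adjusted p = 0.0070). Against Vectors, FOXL2C134W had 2 of the 25 higher and 3 lower, and FOXL2C134W + FOXO1 likewise, with medians of -0.04 and 0.00, where 14.7% and 9.33% of all genes were called. In neither addition of FOXO1 was any of the 25 called by edgeR, where 0.0505% (on FOXL2WT) and 0.714% (on FOXL2C134W) of all genes were called.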

How the data were processed

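RNA was sequenced as stranded mRNA libraries (TruSeq, HiSeq4000, 75-bp single-end reads). The authors quantified transcripts with Salmon 1.1.0 on hg38 and deposited estimated counts per gene, rounded to whole numbers, and the TPM and estimated counts of 227063 transcripts per library. The annotation release is not given in the sources used here. Salmon divides reads between near-identical copies. The members and gene lists were chosen with earlier results of these data known.

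Genes passing filterByExpr (13868) were fitted over all 15 libraries with edgeR 4.0.16 (TMM, glmQLFit, glmQLFTest), 1 term per condition, with Benjamini-Hochberg adjustment over all genes and a threshold of 0.05. The fit was tested on simulated data. CPM are TMM-normalized and log2-CPM used a prior count of 2. TPM was summed by gene. Alternatives were DESeq2 1.42.0, transcript length offsets, other size factors and filters, a replicate block, the compared conditions alone and each library left out. The text names the members, transcripts with at least 5% of gene reads, the 3 closest genes by correlation (1 of them is not reported here), up to 4 genes per list called in FOXL2C134W against FOXL2WT or a FOXO1 comparison, markers and the plasmid genes. Other genes are named as chosen after their values were seen. Sequences were read from GRCh38 with GENCODE 44. No protein sequence was used here.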

Additional observations from a re-analysis of the deposited data

How the results depend on the processing

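The sum of the AKR1C copies kept its direction in every alternative in the 4 comparisons with Vectors. For FOXL2WT against Vectors, by which AKR1C3 was chosen, this is a description and no support. The others share its Vectors libraries. In FOXL2C134W against Vectors the sum passed in every alternative that gave an adjusted p. With transcript length offsets it had -0.83 in FOXL2C134W + FOXO1 against Vectors (adjusted p = 0.27, no longer past the threshold) and -1.11 in FOXL2WT against Vectors, where leaving out a library gave -1.38 to -1.10. Where the sum was near 0 its sign turned with the library left out, from -0.27 to 0.34 in FOXL2C134W against FOXL2WT and from -0.27 to 0.33 in FOXL2C134W + FOXO1 against FOXL2C134W. The cause was not tested.

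With a minimum of 10 reads in every library no AKR1C gene is kept singly, and 1 member was called in FOXL2C134W against Vectors (all genes: 2145 of 12491). In FOXL2C134W against Vectors 1 member was also called under the replicate block (all genes: 1994 of 13868) and with the compared conditions alone (1883 of 13539). With a library left out 0 to 1 were called (1275 to 2126 genes). In FOXL2C134W + FOXO1 against Vectors 1 was called with a minimum of 1 read (all genes: 1586 of 22745). The same number was called under the replicate block (1261 of 13868) and with the compared conditions alone (1266 of 13473). In FOXL2C134W against FOXL2WT 1 was called with DESeq2 (all genes: 1706 of 13868) and with a minimum of 1 read (1954 of 22745). With the compared conditions alone 1 was called (1478 of 13430) and under the replicate block 2 (1562 of 13868). With a library left out 0 to 1 were called (772 to 2120 genes). Replicate letters did not pair the libraries: same-letter libraries of different conditions had a mean correlation of -0.0018 (30 pairs, -0.16 to 0.17), and 5 of 15 libraries correlated best with their own letter.

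Signs of values near 0 turned with a library left out for AKR1C1 in FOXL2WT + FOXO1 against FOXL2WT (-0.14 to 0.55), FOXL2C134W + FOXO1 against FOXL2C134W (-0.39 to 1.05) and the interaction (-0.61 to 0.84), and for AKR1C3 in FOXL2C134W + FOXO1 against FOXL2WT + FOXO1 (-0.47 to 0.12) and against FOXL2C134W (-0.16 to 0.47). The same held for AKR1B1 in FOXL2C134W + FOXO1 against FOXL2C134W (-0.00 to 0.13) and AKR1A1 in FOXL2WT + FOXO1 against Vectors (-0.03 to 0.05), FOXL2C134W + FOXO1 against FOXL2C134W (-0.06 to 0.02) and the interaction (-0.01 to 0.07). With length offsets the sign turned for AKR1B1 in FOXL2WT + FOXO1 against FOXL2WT (0.02) and for AKR1A1 in FOXL2WT + FOXO1 against Vectors (-0.04) and FOXL2C134W + FOXO1 against FOXL2C134W (0.02). DESeq2 gave no adjusted p for 23 values, each of a member or the sum in a comparison, and DESeq2 with length offsets for 17. Those are left out. Depth limits the AKR1C genes: 409 reads over 15 libraries.

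Over all genes, counts of calls moved by over 1.5 times with the settings and the libraries left out: 305 to 1690 (842 as reported) in FOXL2WT against Vectors, 972 to 2320 (2041) in FOXL2C134W against Vectors, 215 to 954 (524) in FOXL2WT + FOXO1 against Vectors, 744 to 1586 (1294) in FOXL2C134W + FOXO1 against Vectors and 759 to 2120 (1560) in FOXL2C134W against FOXL2WT. They ranged from 7 to 446 (20) in FOXL2C134W + FOXO1 against FOXL2WT + FOXO1, 2 to 260 (7) for FOXO1 on FOXL2WT, 5 to 463 (99) for FOXO1 on FOXL2C134W and 45 to 551 (192) for the interaction.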

Other observations

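The related enzymes were called in both directions against Vectors. In FOXL2C134W against Vectors 1 of 6 other aldo-keto reductases, 4 of 13 steroid oxidoreductases and 6 of 19 aldehyde and carbonyl enzymes fell and 0, 0 and 1 rose, where 14.7% of all genes were called. In FOXL2WT against Vectors 0, 2 and 2 fell and 0, 1 and 1 rose, where 6.07% were called. The genes below were chosen after their values were seen, and their comparisons share the Vectors libraries with those of the AKR1C genes. AKR1B10, the retinal reductase closest to AKR1B1, had 34, 40 and 35 reads in Vectors and between 9 and 29 in the 12 other libraries, and fell in FOXL2C134W against Vectors (log2 fold change -1.09, SE 0.29, edgeR adjusted p = 0.014). DHRS3, which reduces retinal to retinol, fell in FOXL2C134W (-1.24, SE 0.26, edgeR adjusted p = 0.0034), in FOXL2C134W + FOXO1 (-1.35, SE 0.27, edgeR adjusted p = 0.0030) and in FOXL2WT (-0.92, SE 0.26, edgeR adjusted p = 0.044). HSD11B1, which regenerates cortisol from cortisone, fell in FOXL2C134W (-1.37, SE 0.27, edgeR adjusted p = 0.0019) and in FOXL2C134W + FOXO1 (-0.95, SE 0.26, edgeR adjusted p = 0.027). In the opposite direction, HSD17B1, which makes estradiol from estrone, had a mean of 2.91 CPM in Vectors and 4.53 CPM in FOXL2WT, where it rose (0.63, SE 0.16, edgeR adjusted p = 0.026). ALDH1B1, a mitochondrial aldehyde dehydrogenase, had a mean of 88.8 CPM in Vectors, and it rose in FOXL2WT (0.34, SE 0.05, edgeR adjusted p = 0.00083), in FOXL2C134W (0.24, SE 0.05, edgeR adjusted p = 0.0046) and in FOXL2C134W + FOXO1 (0.35, SE 0.05, edgeR adjusted p = 0.00027). AKR1C7P reached at most 2 reads and AKR1D1, the bile acid and steroid 5-beta-reductase, at most 3.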
